A study of Mus musculus with 12 samples.

Results

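The myeloid C-type lectins described here are 10 mouse genes, Clec4d, Clec4e, Clec4n, Clec5a, Clec7a, Clec4a1, Clec4a2, Clec4a3, Clec12a and Clec10a. They were chosen by symbol, and all 10 were found, each with 1 row, among the 49315 gene identifiers counted in every tumor. Bulk RNA sequencing counts were analyzed for 12 subcutaneous TRAMP-C2 tumors, a mouse prostate cancer line grown in the right flank of male C57BL/6J mice aged 6 to 8 weeks. Each of the 4 treatment groups held 3 tumors, and every tumor was removed on day 6.

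Treatment was injected into tumors of about 200 mm3. Combination tumors received 3 doses of 50 µg ADU-S100 and 2 doses of 10 µg cyto-IL-15. ADU-S100 tumors received the same 3 doses of ADU-S100, an agonist of the DNA-sensing adaptor STING, in 50 µl on days 0, 2 and 4. Cyto-IL-15 tumors received 2 doses of cyto-IL-15, a membrane-anchoring form of interleukin-15, on days 0 and 4. HBSS tumors, the vehicle controls, received 3 doses of 50 µl. The RNA came from unsorted tumor tissue, so cancer cells and host cells were read together. In such samples fewer cells of a type cannot be told apart from less RNA per cell. The paper states that tumors were cut into parts at collection.

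Total counts ranged from 48772204 to 103700199 per tumor, and no pair of tumors held identical counts. Tumor 13 (cyto-IL-15) and tumor 28LL (combination) stood apart, with correlations of 0.80 to 0.92 with the other tumors over 14145 genes, against 0.94 to 0.99 among the other 10, so the values without them are given where they move a result. The 8 skeletal muscle fiber genes on the marker list summed to 57.0 to 3989 CPM (read counts scaled by TMM to a common library size) in combination tumors, 165 to 1866 in ADU-S100 tumors, 4.49 to 748 in cyto-IL-15 tumors and 6.93 to 8.35 in HBSS tumors. The prostate secretory gene Pbsn, chosen after its values were seen, was at 0 counts in 11 of 12 tumors.

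C-type lectin receptors are surface proteins by which macrophages, monocytes, neutrophils and dendritic cells bind sugars and lipids of microbes and molecules set free by dying cells. The activating members signal through the kinase Syk and the adaptor Card9 toward cytokine genes, either through a partner chain (Fcer1g, Tyrobp or Hcst) or through a motif of their own tail, whereas inhibitory members recruit phosphatases such as Ptpn6. In mouse, Clec4d (MCL) and Clec4e (Mincle) are partners that recognize mycobacterial glycolipid, Clec4n (Dectin-2) binds fungal mannans, Clec7a (Dectin-1) binds beta-glucans, Clec5a (MDL-1) pairs with Tyrobp and Hcst, Clec4a2 (DCIR) and Clec12a (MICL) are inhibitory, and Clec10a (MGL1) binds galactose-type sugars on macrophages and dendritic cells. Clec4a1 and Clec4a3 are close relatives of Clec4a2.

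By build GRCm38, 9 members lie on chromosome 6 and Clec10a lies on chromosome 11 from 70156197 to 70170834. The 6 Clec4 members stand within 368 kb, from the start of Clec4a1 at 122921848 to the end of Clec4e at 123289870. Clec5a lies from 40574894 to 40585821, Clec12a from 129342691 to 129365303 and Clec7a from 129461591 to 129472779 of the same chromosome. The annotation (GENCODE M21) lists Clec7a as a polymorphic pseudogene and the other 9 as protein coding. Clec4a2 is the only member that overlaps another counted gene on its strand or the opposite one, Gm44132, which had at most 3 counts in any tumor.

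The promoters of Clec4d, Clec4e and Clec5a are shown because these 3 genes rose together after ADU-S100. Each run is the 250 bases before the RefSeq start of the gene (GRCm38.p6), written 5′ to 3′ on the strand of the gene, with capitals marking GAGGAA, the core bound by the myeloid factor PU.1, or its reverse complement TTCCTC. The Clec4d run is chr6:123261857-123262106 on the plus strand, the Clec4e run is chr6:123289872-123290121 on the minus strand and the Clec5a run is chr6:40585806-40586055 on the minus strand.
Clec4d: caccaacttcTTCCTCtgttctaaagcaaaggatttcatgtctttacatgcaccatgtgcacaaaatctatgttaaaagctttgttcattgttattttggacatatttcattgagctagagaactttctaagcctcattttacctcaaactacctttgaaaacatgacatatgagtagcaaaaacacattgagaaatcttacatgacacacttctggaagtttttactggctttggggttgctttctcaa
Clec4e: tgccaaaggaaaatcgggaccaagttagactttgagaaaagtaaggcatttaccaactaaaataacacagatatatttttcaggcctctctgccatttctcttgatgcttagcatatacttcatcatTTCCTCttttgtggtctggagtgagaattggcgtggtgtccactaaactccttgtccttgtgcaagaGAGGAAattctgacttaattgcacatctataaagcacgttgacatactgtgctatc
Clec5a: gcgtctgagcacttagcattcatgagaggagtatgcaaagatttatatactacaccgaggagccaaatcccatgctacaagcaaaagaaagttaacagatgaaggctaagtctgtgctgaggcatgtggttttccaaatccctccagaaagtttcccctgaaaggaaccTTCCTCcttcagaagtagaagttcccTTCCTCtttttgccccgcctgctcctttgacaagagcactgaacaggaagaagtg

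GAGGAA on either strand stood 1 time in the Clec4d run, 240 bases before the start, 2 times in the Clec4e run, 123 and 56 bases before it, and 2 times in the Clec5a run, 81 and 55 bases before it. A promoter window was given for 8 members, and 6 of them held the letters, the other 3 being Clec4a1, Clec7a and Clec12a, whereas Clec4a2 and Clec4a3 held none. The first window listed for each gene was searched, and the letters were in that of 23.1% of 27018 genes. The interferon-stimulated response element, searched on both strands as GAAA, any 2 bases and GAAA, was in none of these 8 windows and in that of 3.04% of all genes. TTNNGNAA (C/EBP, 36.9% of all genes) was in 5 of the 8 windows, those of Clec4d, Clec4e, Clec4a2, Clec5a and Clec12a. The NF-kappaB letters, GGG, any 5 bases and CC (45.4%), were in that of Clec4a1, and TGANTCA (AP-1, 6.87%) was in that of Clec12a. These are matches of letters and not measured binding sites.

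In HBSS tumors the 10 genes covered a wide range of levels. Per kb of exon, the scale used for comparing genes, Clec4a1 averaged 22.7 ± 4.91 CPM per kb, Clec4n 22.5 ± 4.40 and Clec4a3 19.2 ± 4.39 (SD, n = 3), and these 3 did not differ beyond their spread. Clec7a (10.8 ± 1.69), Clec4a2 (7.73 ± 1.27), Clec12a (7.72 ± 3.05) and Clec5a (4.63 ± 0.92) followed, and the tumors of Clec12a overlapped those of each of the other 3. Clec10a (1.85 ± 0.13) and Clec4d (1.79 ± 0.57) were next and overlapped, and Clec4e was lowest at 0.25 ± 0.10 CPM per kb. In ADU-S100 tumors Clec4a1 (26.3 ± 1.69) and Clec4a3 (20.1 ± 1.63) stayed at the top, but Clec4d came next at 12.3 ± 5.69 CPM per kb, its tumors overlapping those of Clec12a (12.1 ± 1.69), Clec4a2 (10.0 ± 0.77), Clec4n (10.0 ± 3.24), Clec5a (9.28 ± 0.95) and Clec7a (7.68 ± 2.12). Clec4e (1.43 ± 0.60) and Clec10a (1.18 ± 0.41) were lowest and overlapped.

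**Figure D1:**
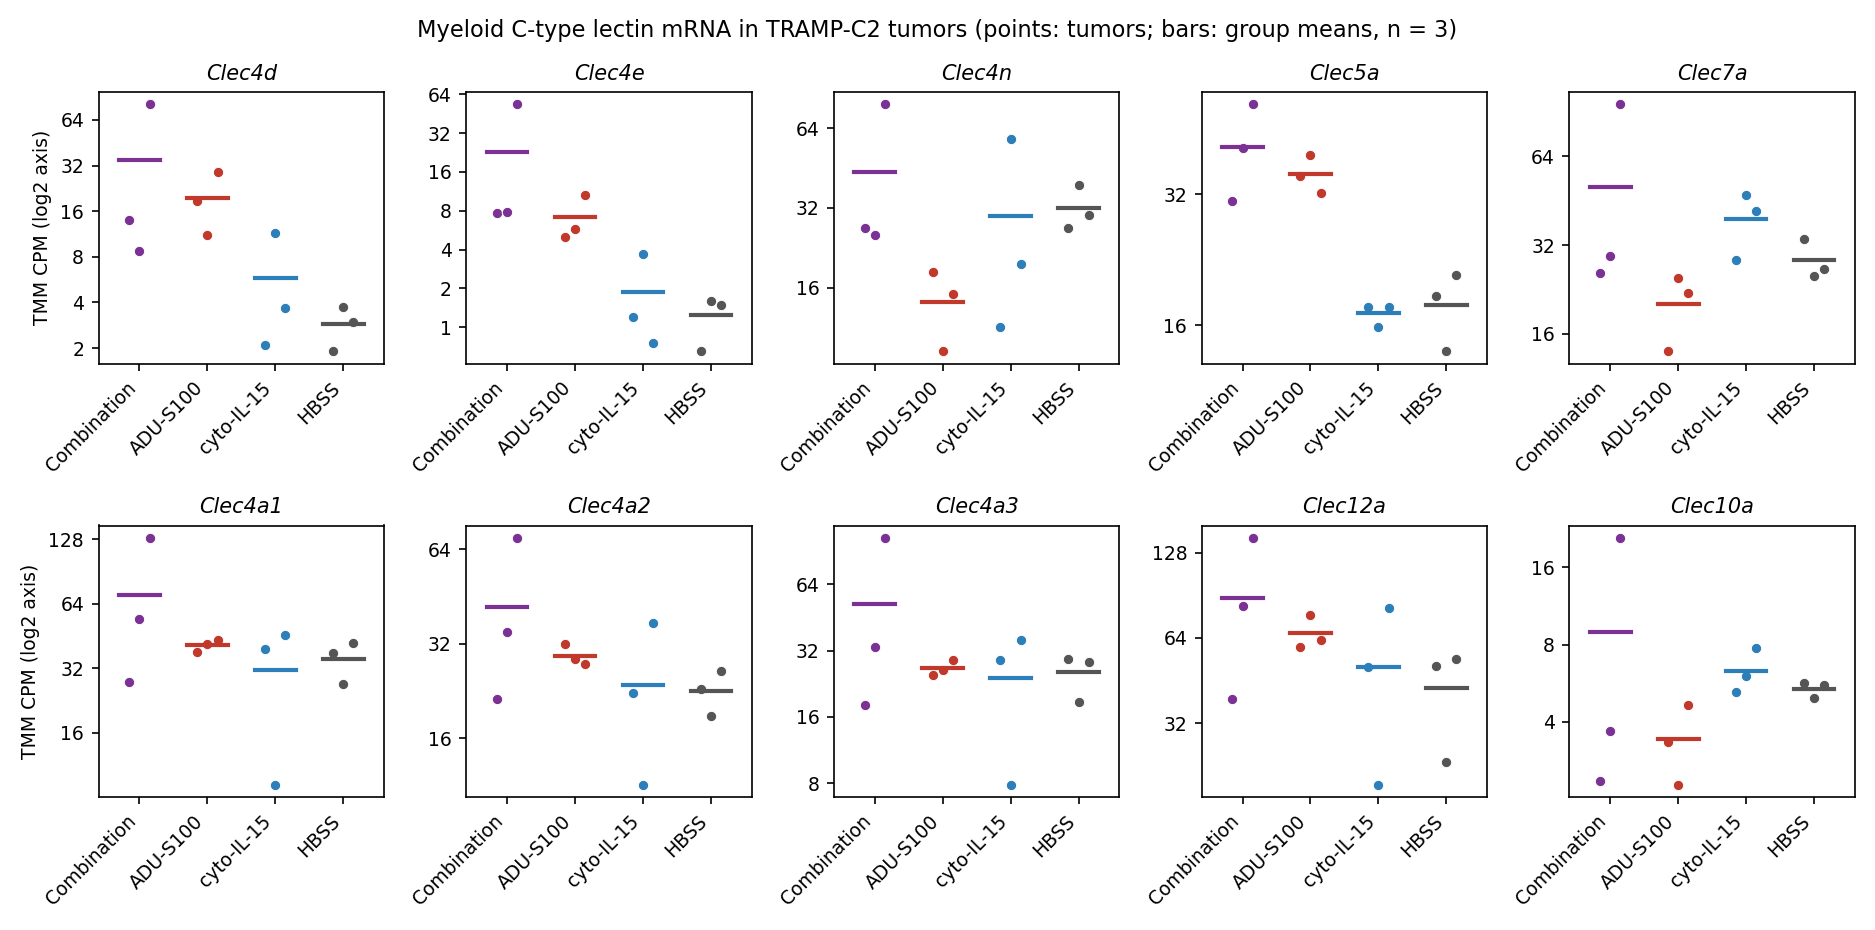
Level of each of the 10 genes in CPM after TMM normalization (log2 axis) in each of the 12 tumors, with a bar at the mean of the 3 tumors of a group. Clec4d, Clec4e and Clec5a sit higher in combination and ADU-S100 tumors than in HBSS tumors, and combination tumor 28LL is the highest point of its panel for all 10 genes.

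The first comparison asked which members differed 6 days after the start of ADU-S100. Clec4d, Clec4e and Clec5a rose, Clec4n fell and the other 6 did not pass the test. Thus 4 of 10 members were called (adjusted p under 0.05 and absolute log2 fold change above 1, edgeR quasi-likelihood test with Benjamini-Hochberg adjustment over all genes), against 3.53% of the 18911 genes tested (2.75% higher and 0.777% lower).

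Clec4d, which pairs with Mincle and brings it to the cell surface, had 18.6, 11.1 and 29.2 CPM in ADU-S100 tumors, against 1.90, 3.72 and 2.97 CPM in HBSS tumors. All 3 ADU-S100 tumors were above every HBSS tumor, and the level was 6.85-fold higher in ADU-S100 tumors (log2 fold change 2.78, SE 0.40, edgeR adjusted p = 0.0125). Clec4e, the Mincle gene, whose product also binds a nuclear protein released by dead cells, had 4.98, 5.81 and 10.5 CPM in ADU-S100 tumors, against 0.65, 1.59 and 1.49 CPM in HBSS tumors. The groups again did not overlap, and Clec4e was 5.69-fold higher in ADU-S100 tumors (log2 2.51, SE 0.41, edgeR adjusted p = 0.0146).

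Clec5a, a receptor that signals through Tyrobp and Hcst, had 35.3, 39.4 and 32.2 CPM in ADU-S100 tumors and 18.6, 13.9 and 20.8 CPM in HBSS tumors. The groups were clear of each other, with a difference of 2.01-fold (log2 1.00, SE 0.17, edgeR adjusted p = 0.0125). This gene lay at the fold threshold, and with DESeq2, RLE size factors or voom with quality weights its log2 fold change was 0.98 and it was no longer called.

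Clec4n, which like Mincle signals through Fcer1g, went the other way. It had 18.3, 9.21 and 15.1 CPM in ADU-S100 tumors, against 27.0, 39.0 and 30.0 CPM in HBSS tumors. Every ADU-S100 tumor lay below every HBSS tumor, and Clec4n fell by 1.17 on the log2 scale (SE 0.26, edgeR adjusted p = 0.0422). Clec7a, the beta-glucan receptor, had 14.0, 24.7 and 22.1 CPM in ADU-S100 tumors and 33.5, 25.1 and 26.6 CPM in HBSS tumors, which did not overlap, but its log2 fold change of -0.48 (SE 0.21) did not pass the test (edgeR adjusted p = 0.204).

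Among the remaining members, the lectin Clec10a had 3.32, 2.26 and 4.64 CPM in ADU-S100 tumors and 5.64, 4.93 and 5.55 CPM in HBSS tumors. Its groups did not overlap either, yet the log2 fold change of -0.65 (SE 0.27) did not pass (edgeR adjusted p = 0.188). The inhibitory receptor gene Clec12a had 59.7, 77.3 and 63.1 CPM in ADU-S100 tumors, against 50.9, 23.3 and 53.8 CPM in HBSS tumors (log2 0.65, SE 0.31), and its wide spread in HBSS tumors came from tumor 22R. The other inhibitory gene, Clec4a2, differed by 0.38 (SE 0.15), also without passing the test. Clec4a1 and Clec4a3 overlapped between the groups, with log2 fold changes of 0.21 (95% interval -0.16 to 0.59, from the standard error and the degrees of freedom of the edgeR fit) and 0.07 (-0.33 to 0.47).

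Counted over all members, 5 lay wholly above and 3 wholly below in ADU-S100 tumors, against 31.5% of all genes tested that did not overlap in either direction. The median log2 fold change was 0.30 over the 10 members and 0.03 over all genes. In 1 fit of all 12 tumors, which shares 1 estimate of the spread with tumors 13 and 28LL, the log2 fold changes were 2.77 (Clec4d), 2.51 (Clec4e), -1.17 (Clec4n) and 1.00 (Clec5a), and none of the 4 was called, at edgeR adjusted p of 0.405, 0.422, 0.605 and 0.230 in this order, as none of 20132 genes was (0%). Leaving out HBSS tumor 19, 22R or 22LL or ADU-S100 tumor 18R left 2 called members each time, against 1.63 to 3.17% of all genes over the 6 fits with 1 tumor left out. Clec4e was called whichever tumor was left out, and Clec4d was lost only without HBSS tumor 22LL (log2 2.80, edgeR adjusted p = 0.0562). Clec5a was lost without HBSS tumor 19 (log2 1.04) or 22R (0.84) or ADU-S100 tumor 18R (0.93). Clec4n kept its call only without ADU-S100 tumor 17LL, and its log2 fold change lay between -1.40 and -0.93 over the 6 fits.

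**Figure D2:**
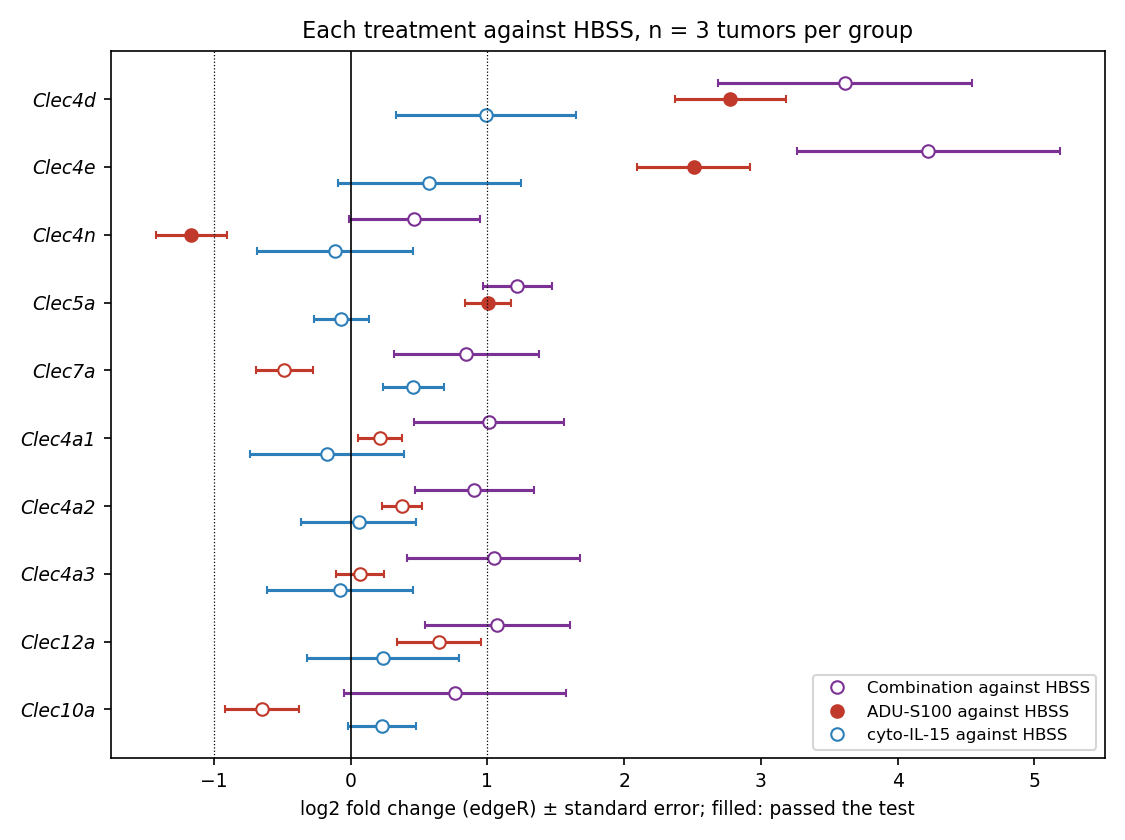
Log2 fold change (edgeR) of each member in the 3 treatments against HBSS, with horizontal bars of 1 standard error and dotted lines at the fold threshold. Filled points passed the test: Clec4d (2.78), Clec4e (2.51), Clec5a (1.00) and Clec4n (-1.17) after ADU-S100, and none in the combination or cyto-IL-15 comparison.

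The second comparison set combination tumors against the same 3 HBSS tumors. All 10 fold changes were positive, but none of the 10 members was called by edgeR, as none of the 18565 genes tested was (0%). At an unadjusted p under 0.05 there were 3 members, Clec4d, Clec4e and Clec5a, and 18.2% of all genes, and DESeq2 and voom with quality weights each called these 3 members, against 5.5% and 4.97% of the genes they tested.

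Clec4d had 13.9, 8.77 and 81.1 CPM in combination tumors 20L, 22 and 28LL, against 1.90, 3.72 and 2.97 CPM in HBSS tumors. Clec4e had 7.71, 7.86 and 53.5 CPM in the combination tumors, against 0.65, 1.59 and 1.49 CPM in HBSS tumors. For both genes every combination tumor was above every HBSS tumor, and tumor 28LL was far above the other combination tumors.

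The log2 fold change was 3.61 (SE 0.93) for Clec4d and 4.23 (SE 0.96) for Clec4e, with edgeR adjusted p of 0.192 and 0.185. Without tumor 28LL both genes were called, as were 1.3% of 19000 genes, with smaller log2 fold changes of 1.98 and 2.64. Clec5a had 30.9, 40.9 and 51.4 CPM in combination tumors, against 18.6, 13.9 and 20.8 CPM in HBSS tumors, again without overlap (log2 1.22, SE 0.25, edgeR adjusted p = 0.185). These 3 were the only members without overlap, all of them higher, against 30.1% of all genes without overlap in either direction.

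The other 7 members overlapped between combination and HBSS tumors and leaned on tumor 28LL. Clec4n had 26.8, 25.3 and 78.6 CPM in combination tumors, against 27.0, 39.0 and 30.0 CPM in HBSS tumors, and its log2 fold change of 0.47 (SE 0.48) was -0.29 without 28LL. Clec7a (0.85, SE 0.53) and Clec10a (0.76, SE 0.81) also turned sign without it, to -0.04 and -0.83. Clec4a1, Clec4a2, Clec4a3 and Clec12a had 130, 69.5, 104 and 144 CPM in tumor 28LL, and log2 fold changes of 1.01, 0.91, 1.05 and 1.07 that did not pass the test (edgeR adjusted p of 0.316 to 0.403). Without this tumor these log2 fold changes were 0.21, 0.31, 0.02 and 0.52.

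The pan-leukocyte gene Ptprc stood at 774 CPM in tumor 28LL, against 166 and 295 CPM in combination tumors 20L and 22 and 123 to 144 CPM in HBSS tumors. The part of leukocyte content in the values of 28LL was not tested, but ratios within each tumor can be read beside it. The log2 ratio of Clec4e to Ptprc, with 0.5 CPM added to both, was -4.34, -5.15 and -3.84 in combination tumors 20L, 22 and 28LL and -4.53, -5.04 and -4.19 in ADU-S100 tumors, against -6.97, -5.88 and -6.15 in HBSS tumors. Both sets of treated tumors stayed above the HBSS tumors on this scale, as did cyto-IL-15 tumor 13 (-4.05). For Clec4d the ADU-S100 tumors, at -4.16 to -2.73, were above the HBSS tumors, at -5.91 to -4.87, whereas combination tumor 22 (-5.00) overlapped them. For Clec5a the ratio was -2.40, -2.84 and -3.90 in combination tumors, which overlapped -2.92, -3.10 and -2.73 in HBSS tumors, whereas the ADU-S100 tumors at -1.82, -2.38 and -2.62 were above the HBSS tumors. Most other members went the other way in combination tumors. Clec4a1 was at -2.56, -2.44 and -2.57, wholly below -1.92, -2.17 and -1.74 in HBSS tumors. Clec4a2, Clec4a3, Clec4n, Clec7a and Clec10a were also wholly below, and Clec12a overlapped. This was not particular to combination tumors. Clec4n, Clec7a and Clec10a were wholly below HBSS tumors in ADU-S100 tumors too, as were Clec4a1 and Clec4a3 in cyto-IL-15 tumors. The share of all genes without overlap on this scale was not computed, so these members cannot be set against it.

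Cyto-IL-15 alone was set against HBSS in the next comparison. None of the 10 members was called by edgeR, DESeq2 or voom, none had an unadjusted p under 0.05, none was without overlap, and the background was 0% called, 3.8% at an unadjusted p under 0.05 and 10.6% without overlap among 18594 genes. Clec5a was the most closely bounded, with 17.6, 15.8 and 17.6 CPM in cyto-IL-15 tumors and 18.6, 13.9 and 20.8 CPM in HBSS tumors (log2 -0.07, 95% interval -0.56 to 0.42).

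The other members were bounded less well, with cyto-IL-15 tumor 13 apart from tumors 9R and 20LL. Clec4d had 2.08, 11.6 and 3.66 CPM in tumors 9R, 13 and 20LL, against 1.90 to 3.72 CPM in HBSS tumors (log2 0.99, 95% interval -0.59 to 2.58), and without tumor 13 its log2 fold change was 0.005. Clec4n had 11.3, 58.4 and 19.7 CPM in these cyto-IL-15 tumors, against 27.0 to 39.0 CPM in HBSS tumors (log2 -0.11, SE 0.57), and without tumor 13 its log2 fold change was -1.04. Tumor 13 was thus the highest cyto-IL-15 tumor for Clec4d, Clec4e, Clec4n and Clec7a.

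It was the lowest for the Clec4a genes and Clec12a, with 9.14 CPM of Clec4a1 against 39.2 and 45.7 CPM in the other 2 cyto-IL-15 tumors. The log2 fold changes of Clec4e (0.58, SE 0.67), Clec4a1 (-0.18, SE 0.56), Clec4a2 (0.06, SE 0.42), Clec4a3 (-0.08, SE 0.53), Clec7a (0.46, SE 0.22), Clec10a (0.23, SE 0.25) and Clec12a (0.24, SE 0.56) did not pass. Without tumor 13 they were -0.35 for Clec4e, 0.27 for Clec4a1, 0.40 for Clec4a2, 0.35 for Clec4a3, 0.31 for Clec7a, 0.27 for Clec10a and 0.63 for Clec12a. The 95% intervals with all tumors hold changes of more than 2-fold for 7 of the 10 members.

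Since ADU-S100 was given with and without cyto-IL-15, its effect was also estimated over all 12 tumors, 6 with it and 6 without, with cyto-IL-15 as a covariate. These are the same HBSS and ADU-S100 tumors as above, so the estimate is not independent of the first comparison. Clec5a (log2 1.14, SE 0.15), Clec4e (3.07, SE 0.62) and Clec4d (2.68, SE 0.59) rose, with edgeR adjusted p of 0.00643, 0.0345 and 0.0472, and the other 7 did not pass, against 1.24% of 19381 genes called (1.06% higher). Clec5a lay between 30.9 and 51.4 CPM in the 6 tumors given ADU-S100, against 13.9 to 20.8 CPM in the 6 without, and Clec4e between 4.98 and 53.5 CPM, against 0.65 to 3.67 CPM.

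For both genes the tumors given ADU-S100 were clear of the others, as were 1.96% of all genes in this direction. Clec4d overlapped through cyto-IL-15 tumor 13 alone, at 11.6 CPM, above combination tumor 22 (8.77 CPM) and ADU-S100 tumor 18R (11.1 CPM). Leaving out any HBSS tumor, any ADU-S100 tumor or cyto-IL-15 tumor 9R or 20LL left Clec5a as the only call, and without combination tumor 28LL Clec4d was lost (log2 2.01). Over these 12 fits 0.336 to 2.67% of all genes were called. Without tumors 13 and 28LL together all 3 were called, with log2 fold changes of 2.46 (Clec4d), 2.70 (Clec4e) and 1.02 (Clec5a), as were 2.69% of genes. Clec4n, which fell after ADU-S100 alone, was not called here (log2 -0.31, SE 0.49).

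The interaction term measures departure from the sum of both agents on the log scale. It called none of the 10 members and none of 20132 genes (0%) by edgeR, with no member and 2.29% of genes at an unadjusted p under 0.05, and no member was called by DESeq2 or voom, with no adjusted p from DESeq2 for Clec4e. The estimates were wide, with 9 of 10 positive, a median of 0.90 and standard errors of 0.30 to 1.15, and 9 of the 10 intervals held departures of more than 2-fold. Without tumors 13 and 28LL, those of Clec4a1, Clec4a2, Clec4a3, Clec10a and Clec12a turned negative, at -0.75 to -0.26. The smallest p of a member was that of Clec4n (log2 1.72, 95% interval -0.12 to 3.56, edgeR unadjusted p = 0.0642, and 1.92 without tumors 13 and 28LL). Correspondingly, Clec4n was higher in combination than in ADU-S100 tumors, with 26.8, 25.3 and 78.6 CPM against 18.3, 9.21 and 15.1 CPM. The groups did not overlap, and the log2 fold change of 1.63 (SE 0.52) had an unadjusted p of 0.0173 but an edgeR adjusted p of 0.884. Without tumor 28LL it was 0.88.

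Clec7a likewise lay higher in combination than in ADU-S100 tumors (log2 1.32, SE 0.55, edgeR adjusted p = 0.884, and 0.44 without tumor 28LL), and no member was called between these groups by edgeR, DESeq2 or voom, with 2 members and 4.29% of genes at an unadjusted p under 0.05. Clec5a differed little between combination and ADU-S100 tumors (log2 0.21, 95% interval -0.30 to 0.73). Clec4d (0.83, SE 0.85) and Clec4e (1.71, SE 0.83) were bounded less well, and were at -0.79 and 0.13 without tumor 28LL.

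Between ADU-S100 and cyto-IL-15 tumors no member was called by edgeR, against 0.0855% of 18708 genes, although 5 members had an unadjusted p under 0.05, as did 7.85% of genes. Clec5a (log2 1.04, SE 0.16), Clec4e (1.90, SE 0.66) and Clec4d (1.74, SE 0.69) were higher and Clec7a (-0.98, SE 0.29) and Clec10a (-0.91, SE 0.35) were lower in ADU-S100 tumors by these estimates, with edgeR adjusted p of 0.15 to 0.61. Without tumor 13, Clec4e (2.87) and Clec5a (1.02) were called, as were 1.05% of genes, and Clec4d was at 2.77. DESeq2 called Clec5a and 1.44% of genes, and voom with quality weights called Clec4e and Clec5a and 0.978% of genes.

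Between combination and cyto-IL-15 tumors 0 of 10 members and 0% of 18619 genes were called by edgeR. Clec5a (log2 1.29, SE 0.25), Clec4e (3.66, SE 1.06) and Clec4d (2.63, SE 1.05) had an unadjusted p under 0.05, as did 4.97% of genes, DESeq2 called Clec4e and Clec5a and 0.564% of genes, and voom called no member. Without tumor 28LL these log2 fold changes were 1.08 (Clec5a), 2.05 (Clec4e) and 0.98 (Clec4d), and without tumor 13 they were 1.22, 4.55 and 3.58.

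The Clec4 genes are neighbors, yet they did not move as a block. After ADU-S100, Clec4a1, Clec4a3 and Clec4a2, at 0, 30.7 and 185 kb from the start of Clec4a1, had log2 fold changes of 0.21, 0.07 and 0.38. The pair at the far end, Clec4d at 340 kb and Clec4e at 360 kb on the opposite strand, had 2.78 and 2.51. Between them and the Clec4a genes, Clec4n at 308 kb had -1.17. Of the other lectin genes in this stretch, Clec4a4 (0.31, SE 0.55) and Clec4b1 (-0.86, SE 0.38) did not pass the test, and Clec4b2, with at most 4 counts, was not tested.

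**Figure D3:**
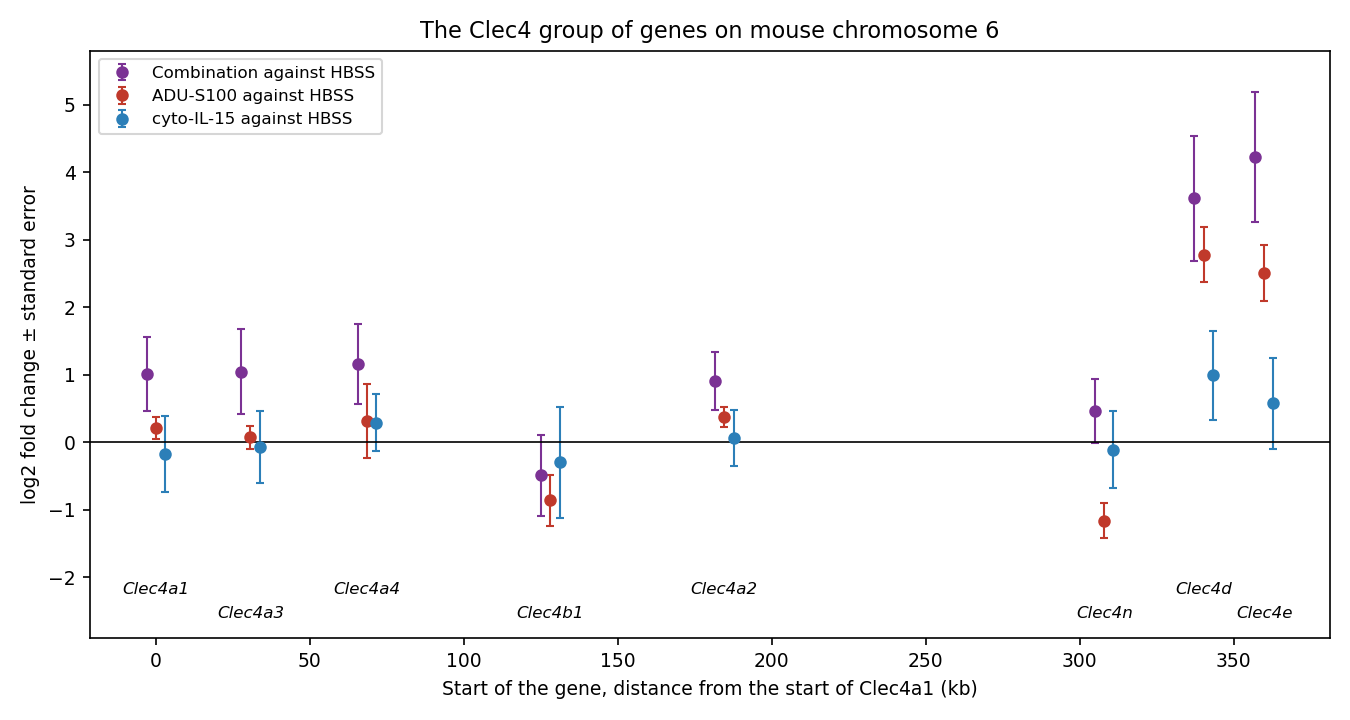
Log2 fold change (edgeR, bars of 1 standard error) of the tested lectin genes against the distance of their start from the start of Clec4a1 in kb, with the 3 comparisons shifted slightly sideways. Clec4d and Clec4e at the right end stand above the other genes after the combination (3.61 and 4.23) and after ADU-S100 (2.78 and 2.51), while Clec4n, next to them, stands at 0.47 and -1.17.

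The mixture of lectin mRNA within each tumor was compared next. Clec4d made up 9.31, 4.07 and 13.2% of the summed CPM per kb of the 10 genes in combination tumors and 10.95, 6.59 and 15.2% in ADU-S100 tumors, against 1.16, 2.68 and 1.73% in HBSS tumors. Clec4n made up 20.2, 13.2 and 14.4% in combination tumors and 12.1, 6.16 and 8.87% in ADU-S100 tumors, against 18.4, 31.5 and 19.6% in HBSS tumors. Every ADU-S100 tumor thus had a larger share of Clec4d and a smaller share of Clec4n than any HBSS tumor. Cyto-IL-15 tumors 9R, 13 and 20LL had 1.44, 7.83 and 1.86% of Clec4d and 8.82, 44.5 and 11.3% of Clec4n, so tumors 9R and 20LL also lay below the HBSS tumors in Clec4n, and tumor 13 lay above ADU-S100 tumor 18R in Clec4d. The sum of the 10 genes itself ran from 249 to 277 CPM in ADU-S100 tumors, against 176 to 238 CPM in HBSS tumors.

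Tumor 28LL, which reached 829 CPM in this sum, had 21.6% of Clec4a1 and 14.4% of Clec4n, both between those of the other combination tumors, but only 3.48% of Clec5a, against 8.62 and 7.90% in tumors 20L and 22, and 2.79% of Clec4e, against 1.66 and 1.17%. Tumor 13 had the largest share of Clec4n and the smallest of Clec4a1 (6.35%) of the 12 tumors. Ratios of 2 members within a tumor were also read. The log2 ratio of Clec4e to Clec10a, with 0.5 CPM added to both, was 1.53, 1.00 and 1.34 in combination tumors and 0.52, 1.19 and 1.10 in ADU-S100 tumors, against -1.76, -0.65 and -2.71 in cyto-IL-15 tumors and -2.42, -1.37 and -1.60 in HBSS tumors. The pair was chosen with the results known. It was above 0 in the 6 tumors given ADU-S100 and below 0 in the other 6.

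**Figure D4:**
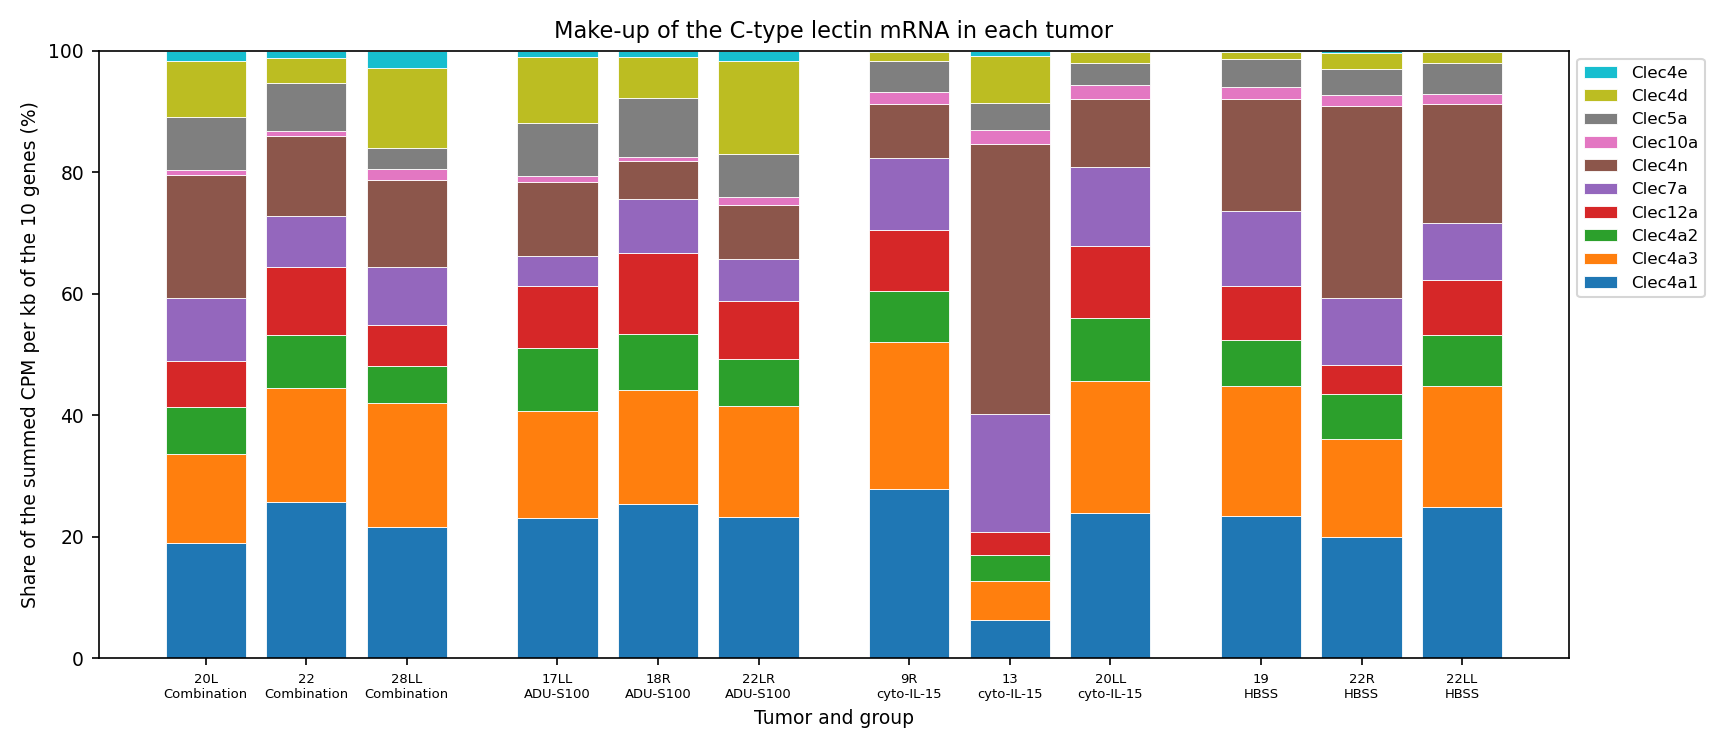
Share of each gene in the summed CPM per kb of the 10 genes, as stacked bars that reach 100% in each tumor, with the groups from combination on the left to HBSS on the right. Clec4d takes 4.07 to 15.2% in combination and ADU-S100 tumors against 1.16 to 2.68% in HBSS tumors, and tumor 13 is set apart by a Clec4n share of 44.5%.

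Of the partner chains, Fcer1g and Tyrobp averaged 193 and 175 CPM per kb in ADU-S100 tumors, against 112 and 132 CPM per kb in HBSS tumors, above every member, whereas Hcst averaged 4.32 and 2.75 CPM per kb in these groups. Of the 12 adaptor and activating signaling genes none was called after ADU-S100 by edgeR, DESeq2 or voom, and 4 had an unadjusted p under 0.05 by each tool. The share of all genes under that unadjusted p was not kept among the results of this comparison. Neither these 4 nor the 1 inhibitory gene given below can be set against it. Of the 12, 3 lay wholly above and 1 wholly below in ADU-S100 tumors, against 31.5% of all genes without overlap in either direction. Fcer1g, the chain shared by Clec4d, Clec4e and Clec4n, had 176, 169 and 160 CPM in ADU-S100 tumors, against 110, 79.0 and 106 CPM in HBSS tumors. The groups did not overlap, and its log2 fold change of 0.78 (SE 0.14, edgeR adjusted p = 0.0177) stayed under the fold threshold. Tyrobp (0.42, SE 0.12) and Hcst (0.66, SE 0.26), the partners of Clec5a, were above in every ADU-S100 tumor without passing the test.

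Syk (-0.16, SE 0.13) and Card9 (0.14, SE 0.17), the kinase and the adaptor downstream, differed little between ADU-S100 and HBSS tumors. Of the 4 inhibitory signaling genes none was called by any of these tools (unadjusted p under 0.05 for 1 by edgeR), and 1 lay wholly above and 1 wholly below. Ptpn6, the phosphatase recruited by inhibitory tails, was at 0.45 (SE 0.21). In the combination comparison edgeR called no gene of either list. At an unadjusted p under 0.05 there were 4 adaptor or activating genes and 1 inhibitory gene, against 18.2% of all genes. DESeq2 and voom each called Hcst, against 5.5% and 4.97% of the genes they tested. In the cyto-IL-15 comparison none of the tools called a gene of either list. By edgeR 0 of these genes had an unadjusted p under 0.05, against 3.8% of all genes.

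Of 13 cytokine and enzyme genes that these receptors and other innate receptors can turn on, 4 rose after ADU-S100 and none fell. Of all genes tested, 2.75% rose and 0.777% fell in this comparison. Ccl4 and Ccl3, chemokines for monocytes and lymphocytes, ran from 5.06 to 7.38 and from 5.87 to 8.43 CPM in ADU-S100 tumors, against 1.31 to 1.64 and 2.02 to 2.36 CPM in HBSS tumors. Their log2 fold changes were 2.11 (SE 0.23) and 1.72 (SE 0.21). Tnf rose by 1.42 (SE 0.25). Cxcl2, a neutrophil chemokine, rose by 4.00 (SE 0.76) and was chosen after its values were seen. The median over the 13 genes was 1.19, against 0.03 over all genes.

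Among 16 other C-type lectin receptor genes, of which 10 were tested, 1 rose and 4 fell after ADU-S100. The shares over all genes tested were 2.75% that rose and 0.777% that fell. Of the 10 tested, 8 had negative and 2 had positive fold changes. Olr1, the receptor for oxidized LDL, was the one that rose (log2 1.83, SE 0.30, edgeR adjusted p = 0.0125). Mgl2, the close relative of Clec10a, fell by 3.09 (SE 0.36), with 0.64 to 1.23 CPM in ADU-S100 tumors, against 4.82 to 8.90 CPM in HBSS tumors. Cd209a, a relative of DC-SIGN, had 6, 3 and 0 counts in ADU-S100 tumors, against 208, 88 and 211 counts in HBSS tumors. The other 2 that fell, both chosen after their values were seen, were Mrc1, the macrophage mannose receptor (-1.53, SE 0.25), and Cd209b (-2.43, SE 0.60). The median of the 10 tested was -0.88.

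Markers of the cells that carry these receptors moved in the same comparison, and their part in the results was not tested. The calls stand beside 2.75% of all genes tested that rose and 0.777% that fell. Of 12 neutrophil markers, 9 were tested and 5 rose after ADU-S100, with S100a8 (log2 4.52, SE 0.55), S100a9 (4.30, SE 0.64) and Mmp8 (5.26, SE 0.79) having the smallest p. Of the 9 tested, 2 had negative fold changes. Csf3r averaged 15.7 CPM in ADU-S100 tumors and 19.0 CPM in HBSS tumors, and Mmp9 averaged 697 and 730 CPM. The defining gene Ly6g had 4, 3 and 5 counts in ADU-S100 tumors and 0 in every HBSS tumor. The summed neutrophil list ran from 680 to 813 CPM in ADU-S100 tumors and 699 to 776 CPM in HBSS tumors, almost all of it Mmp9. Without Mmp9, which was chosen for removal after its values were seen, it ran from 25.2 to 66.1 CPM, against 17.3 to 21.9 CPM.

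Of 8 monocyte markers 5 rose, led by Chil3 (log2 4.06, SE 0.27), Plac8 (2.87, SE 0.27) and F10 (4.33, SE 0.46), and the other 3, Ccr2, Fn1 and Vcan, had negative fold changes that did not pass. Ccr2, the chemokine receptor of monocytes, averaged 107 CPM in ADU-S100 tumors and 134 CPM in HBSS tumors. The summed list ran from 3669 to 6679 CPM in ADU-S100 tumors, against 6556 to 8152 CPM in HBSS tumors, and without Fn1 and Vcan, which were chosen for removal after their values were seen, from 278 to 596 CPM, against 106 to 208 CPM. Of 10 resident-type macrophage markers 4 fell, with Slco2b1 (-1.61, SE 0.15), Fcrls (-2.17, SE 0.21) and Selenop (-1.16, SE 0.12) having the smallest p, and the summed list was 522 to 524 CPM in ADU-S100 tumors, against 1372 to 1471 CPM in HBSS tumors. No marker of the monocyte or resident-type list had a group mean of 0. The calls in both lists stand beside the same 2.75% of all genes that rose and 0.777% that fell.

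Of 8 pan-macrophage markers 1 rose, Fcgr1 (log2 1.11, SE 0.21), and 4 of the 8 had negative fold changes that did not pass. In ADU-S100 tumors 3 lay wholly above and 4 wholly below, against 31.5% of all genes without overlap in either direction. Those below were Csf1r (257 to 404 CPM, against 545 to 670 CPM in HBSS tumors), Adgre1, Mertk and Cd14. The sum was 832 to 1061 CPM in ADU-S100 tumors, against 1025 to 1264 CPM in HBSS tumors. Of 8 dendritic cell markers 2 fell, Irf4 (-1.21, SE 0.27) and Flt3 (-1.49, SE 0.35). In all, 7 had negative fold changes, and the median log2 fold change was -0.34. The sum was 47.5 to 101 CPM against 41.1 to 58.2 CPM. Its largest part was Itgax, chosen after its values were seen, which averaged 51.2 CPM in ADU-S100 tumors and 22.3 CPM in HBSS tumors. Of 8 lymphocyte markers 2 rose, Klrb1c (2.02, SE 0.19) and Ncr1 (1.90, SE 0.21), both of natural killer cells. Of 8 muscle markers 4 rose, with sums as given above. For these lists too, the shares over all genes were 2.75% that rose and 0.777% that fell.

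Across the 12 tumors the members fell into sets by Pearson correlation of log2(CPM + 0.5), given as a description since the tumors share their treatments and tumors 13 and 28LL weigh on it. Clec4a1, Clec4a2, Clec4a3 and Clec12a were correlated at 0.90 to 0.98, and without tumors 13 and 28LL at 0.73 to 0.93 over 10 tumors. Clec4d and Clec4e were correlated at 0.95 (0.92 without these tumors), and Clec5a with them at 0.77 and 0.84 (0.80 and 0.87). Clec7a and Clec10a were at 0.83 (0.54), and Clec4n with Clec7a at 0.67 (0.15).

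Some relations changed sign without tumors 13 and 28LL. Clec4e and Clec10a were at 0.25 over 12 tumors and -0.76 over 10, and Clec4d and Clec7a at 0.28 and -0.64. All 14144 other genes that averaged 1 CPM or more were also ranked by their likeness to each member. Clec4d was most like the chemokine gene Cxcl3 (r = 0.98), S100a9 (0.97), a calcium-binding protein of neutrophils and monocytes, and Fos (0.97). Clec4e was most like 4930430E12Rik, Gzmf and Gzmd (0.98 each). The granzyme genes are relatives of each other, and their counts may share reads, which was not tested.

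Clec5a was most like the interferon-stimulated genes Irf7, Oas1g and Oas1a (0.97 each), with 0.96 for all 3 over the 10 tumors. Clec4a1 was most like Ms4a6c (0.99), Clec4a3 and Apobec3 (0.98 each), Clec4a3 like Clec4a1, Ms4a6c (0.98 each) and Fli1 (0.97), Clec4a2 like Ptpn18, Dnase1l1 and Cd48 (0.98 each), and Clec12a like Apobec1 (0.98), the phosphatase gene Ptpn6 (0.97) and AB124611 (0.96). Clec7a was most like Eef2k (0.96), Nipa2 and Ric8a (0.95 each), and Clec10a like Arrdc4 (0.93), Rap2c and Pkd1l3 (0.91 each). Clec4n had the weakest neighbors, Ppp1r15b and Spcs3 (0.88 each) and Immp1l (0.86), which fell to 0.72, 0.81 and 0.64 over the 10 tumors.

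**Figure D5:**
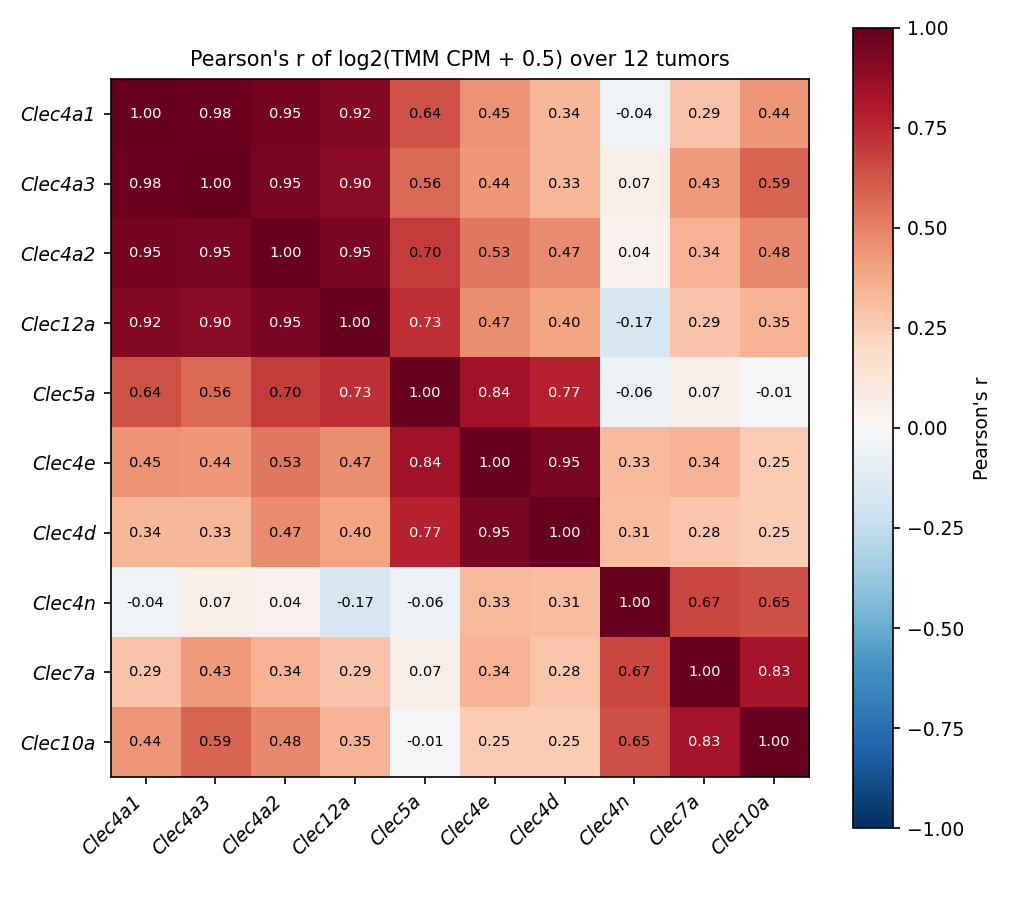
Pearson correlation of log2(CPM + 0.5) between the 10 genes over all 12 tumors, from blue (-1) to red (1). The Clec4a genes and Clec12a form a block of 0.90 to 0.98, Clec4d and Clec4e a pair at 0.95 with Clec5a beside them, and Clec7a and Clec10a a pair at 0.83.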

How the data were processed

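RNA was measured in 12 TRAMP-C2 tumors. Per the submitters' processing notes, reads were handled with bcl2fastq 2.20, Trimmomatic 0.36, STAR 2.5.2b and featureCounts of Subread 1.5.2 on GRCm38 (mm10). The authors deposited whole-number counts of reads per Ensembl gene, 1 file per tumor, which were used as raw counts. The strand setting and the handling of reads that map to several places are not given in the sources used here, so counts of the similar Clec4a genes may share reads.

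The levels are TMM-normalized CPM over 12 tumors. In R 4.3.3, edgeR 4.0.16 was fitted to the 6 tumors of each pair of groups (filterByExpr with minimum count 10 and minimum total 15, TMM, robust quasi-likelihood F test, Benjamini-Hochberg adjustment over all tested genes), and the interaction and the ADU-S100 effect on all 12. A gene was called at adjusted p under 0.05 and absolute log2 fold change above 1. Only the edgeR fit of ADU-S100 against HBSS was tested on simulated counts. These had the same dispersion for every gene and no tumor set apart, so the other fits were not tested in this way. All 10 members passed the count filter in every comparison. Each tumor is a separate sample by its label, and p-values measure the spread between these tumors.

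The members and lists were chosen with earlier results of these data known. Named are all members, Syk, Card9, Fcer1g, Tyrobp, Hcst, Ptpn6 and Ptprc, for each other list and comparison the called genes of smallest p (3 at most), and the 3 genes most correlated with each member, where the mean reached 1 CPM. Alternatives were DESeq2 1.42.0, RLE size factors, no count filter, no fold threshold, voom with quality weights (limma 3.58.1), 1 fit of all 12 tumors, leaving out tumors 13 and 28LL, each tumor left out in turn, and CPM of the library total. Correlations without tumors 13 and 28LL were added after seeing the data. Promoters are RefSeq windows (GRCm38.p6), matched by symbol for 8 of 10 members.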

Additional observations from a re-analysis of the deposited data

How the results depend on the processing

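Of 8 comparisons, each with a count of called members, those of cyto-IL-15 against HBSS, combination against ADU-S100 and the interaction stayed at 0 members under every alternative, with no DESeq2 adjusted p for Clec4e in the interaction. For ADU-S100 against HBSS the count of 4 became 0 in 1 fit of all 12 tumors and ranged from 2 to 4 when each tumor was left out. For combination against HBSS the count of 0 became 3 with DESeq2 and 3 with voom, and ranged from 0 to 2 over left-out tumors, with 2 only without combination tumor 28LL. For ADU-S100 against cyto-IL-15 it became 1 with DESeq2 and 2 with voom, and ranged from 0 to 2, with 2 only without cyto-IL-15 tumor 13. For combination against cyto-IL-15 it became 2 with DESeq2. For the ADU-S100 effect the count of 3 became 1 with no count filter and ranged from 1 to 3 over left-out tumors, and DESeq2 gave Clec4e no adjusted p there. The cause of these differences was not tested.

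Some log2 fold changes that were not called turned sign. With voom they were -0.19 for Clec4n and -0.59 for Clec10a (combination against HBSS), and -0.11 for Clec4e, 0.13 for Clec4a1 and 0.21 for Clec4a3 (cyto-IL-15 against HBSS). With each tumor left out in turn, the log2 fold change ranged from -0.13 to 0.18 for Clec4a3 after ADU-S100. After the combination it ranged from -0.29 to 0.76 for Clec4n, -0.040 to 1.15 for Clec7a and -0.83 to 1.20 for Clec10a. After cyto-IL-15 it ranged from -0.35 to 0.95 for Clec4e, -1.04 to 0.27 for Clec4n, -0.54 to 0.27 for Clec4a1, -0.42 to 0.40 for Clec4a2, -0.46 to 0.35 for Clec4a3, -0.22 to 0.060 for Clec5a and -0.29 to 0.63 for Clec12a. None of the called log2 fold changes turned sign. No paired analysis was possible because the labels number no replicates and say nothing of the number in a tumor name, which some groups share (22R, 22LL, 22LR and 22, and 20LL and 20L), and any 2 groups share fewer than 2 such numbers. Depth did not limit the members, whose lowest count in any tumor was 40 (Clec4e, HBSS tumor 19), and the 3 tumors per group limit the precision.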
